A study of Homo sapiens with 4 samples.

Results

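The 9 genes described here are HIPK3, TDG, KDELC1, ITPA, PTTG1IP, CCDC80, KCTD9, CTNNBIP1 and HHIPL2. They were selected on their RPKM in these same libraries. Each carries a match to the miR-217 seed in its 3'UTR, was lower with miR-217 mimic than with mimic NC within each replicate number, ranks among the genes with a match that had the lowest log2 difference, and is not one of the study's own candidate targets (SOS1, UBL3, SPOPL, ICK and INSIG2). The mimic values are therefore given as a description. The table held 32955 genes, of which 13871 had a mean RPKM of at least 1 and were tested, and 1440 of the tested genes held the seed match. All 9 genes were among these 1440.

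RNA-seq was carried out on MDA-MB-231, an established line of triple-negative breast cancer cells with mesenchymal features. The 4 libraries comprised 2 of cells given mimic NC, the negative control oligonucleotide, and 2 of cells given miR-217 mimic, an RNA made to act like the mature miRNA. All cells were grown in DMEM with 10% fetal bovine serum, and each group has a replicate number 1 and a replicate number 2. Neither the time after transfection nor whether the replicates were separate cultures is given in the labels, and so p-values measure the spread between these libraries, which may be technical. The unit is RPKM, the reads on a gene per kilobase of its length and per 1000000 counted reads. Reads recovered from RPKM and gene length summed to between 32635814 and 57933183 per library, and miR-217 mimic replicate 2 was the smallest. VIM, a mesenchymal marker, was at 27.9 to 36.9 RPKM and ESR1, the estrogen receptor, at 0.0294 to 0.0756 RPKM, while EPCAM, an epithelial marker, was at 3.90 to 7.41 RPKM. The mimic itself cannot be read from this mRNA table, in which MIR217 is not listed and its host MIR217HG was at 0 to 0.0416 RPKM. The libraries numbered 1 stood apart from those numbered 2 in both groups, and the leading principal component, which separated them, held 71.3% of the variance.

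A miRNA is loaded into an Argonaute protein and guides it to mRNAs by base pairing, mainly through the seed near its 5' end. Pairing to a site in the 3'UTR usually lowers the mRNA by a modest amount, through deadenylation and decay, or lowers its translation. A site with an A opposite the first base of the miRNA is generally bound more strongly than one without it. The mature strand is shown with its seed (bases 2 to 8) in capitals, because every site below is its complement (RefSeq, GRCh38.p14, minus strand, chr2:55983020-55983042).
hsa-miR-217-5p: uACUGCAUcaggaacugauugga

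The motif searched on the sense strand of the 3'UTR was ATGCAGT, the complement of bases 2 to 8, and the longer 8-base site ATGCAGTA contains it. The longest annotated 3'UTR of each gene was used (GENCODE 29, GRCh38). The 9 genes held 10 matches. Of the matches, 7 were 8-base sites, 1 each in HIPK3, TDG, KDELC1, ITPA, PTTG1IP, CCDC80 and KCTD9. The other 3 were 7-base matches, in CTNNBIP1, in HHIPL2 and, as a further match, in TDG. The 24 bases that could face the miRNA are shown for 8 of the genes, since these windows are what the genes have in common, with the match in capitals.
HIPK3: ttagcttgggcaaaccATGCAGTA
TDG, first match: aaatgctgcagttttaATGCAGTt
TDG, second match: tggcaggttccagagaATGCAGTA
KDELC1: agacacatttctacttATGCAGTA
ITPA: cttccatggtttttaaATGCAGTA
PTTG1IP: agtgaactctgtatgaATGCAGTA
CCDC80: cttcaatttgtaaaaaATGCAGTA
CTNNBIP1: gagcggctggagaaagATGCAGTc
HHIPL2: aatgcaccttctctgtATGCAGTg

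Beyond the capitals the windows had little in common. Of the 4 miRNA bases 13 to 16, which can add to the pairing of a seed, 0 to 2 could pair with the base directly opposite in each window, counted without gaps. The predicted duplex energy (RNAduplex) ranged from -19.2 kcal/mol for KCTD9 to -11.0 kcal/mol for HIPK3. All 10 matches lay in the last exon. The windows shown are at chr11:33354587-33354610 (plus strand) for HIPK3, chr12:103987115-103987138 and chr12:103987747-103987770 (plus) for TDG, and chr20:3223780-3223803 (plus) for ITPA. On the minus strand they are at chr13:102784348-102784371 for KDELC1, chr21:44849844-44849867 for PTTG1IP, chr3:112601983-112602006 for CCDC80, chr1:9849081-9849104 for CTNNBIP1 and chr1:222522412-222522435 for HHIPL2.

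**Figure D1:**
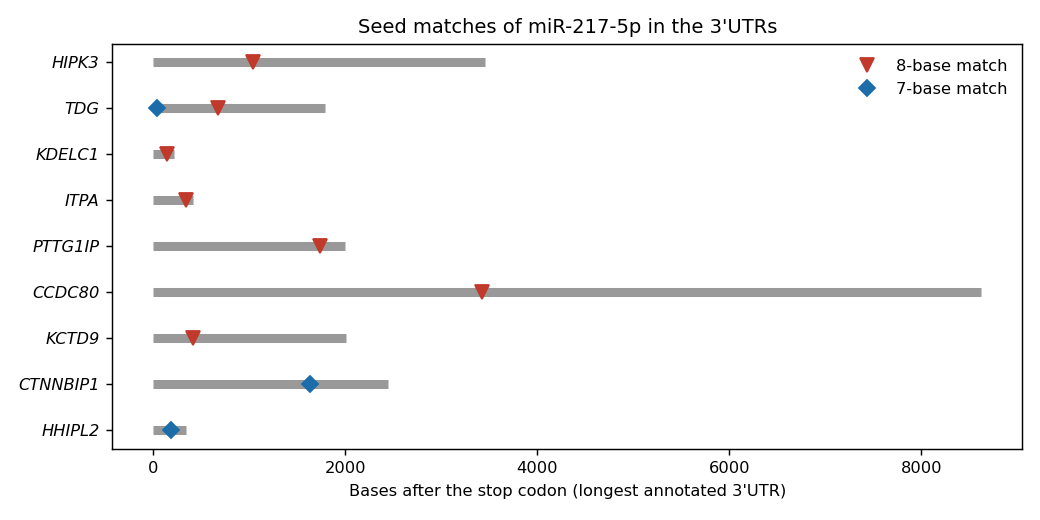
Place of each miR-217-5p seed match in the longest annotated 3'UTR of the 9 genes. The horizontal axis gives bases after the stop codon, grey bars are 3'UTRs to scale, triangles are 8-base matches and diamonds are 7-base matches; the 3'UTRs run from 214 bases in KDELC1 to 8623 bases in CCDC80, and TDG alone has 2 matches.

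The place of the match differed widely between the genes, as drawn in the map of the 3'UTRs. It began 41 bases after the stop codon for the first match of TDG, 140 for KDELC1, 182 for HHIPL2 and 334 for ITPA. It began 412 bases after the stop codon in KCTD9, 1035 in HIPK3, 1630 in CTNNBIP1, 1730 in PTTG1IP and 3427 in CCDC80. The median of the first match was 412 bases, compared with 1145 bases for the 1431 other tested genes with a match. This lies below the lower quartile of the other genes (quartiles 491.5 and 2367). The 3'UTRs of the 9 genes had a median of 1996 bases compared with 3148, which lies within the middle range of the other genes (quartiles 1794 and 4983). The gene length used for RPKM had a median of 3537 bases compared with 6990, below the lower quartile of the other genes (quartiles 4801 and 9619.5). The 3'UTRs of KDELC1 (214 bases), HHIPL2 (341 bases) and ITPA (408 bases) lay at percentiles 0.139, 0.764 and 1.53 of the 1440 genes with a match, while HIPK3 lay at 55.6 and CCDC80 at 92.0. The share of A and U in the 30 bases on each side of the match had a median of 63.3% in both sets, and ran from 31.7% in CTNNBIP1 to 80.0% in KCTD9. None of these features was a criterion of the listing. The gene length, however, enters RPKM and through it the log2(RPKM + 1) difference that ordered the genes. It is therefore not independent of the choice, and features tied to it, such as 3'UTR length, may not be either. All are given as a description, without a test, because the genes are few and were listed by hand.

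Of the tested genes with a 3'UTR, 14.5% of 9913 held ATGCAGT and 3.67% held its longer form with the final A. That longer form was found in 25.3% of the 1440 genes with a match, compared with 7 of the 9 genes (77.8%). Because the 9 genes were listed on their fall in these same libraries, this comparison is a description only. More than 1 match was found in 19.0% of the 1440 genes, and in 1 of the 9 genes (TDG). The match was present in every annotated protein-coding transcript with a 3'UTR for HIPK3, TDG, KDELC1, KCTD9 and HHIPL2, as it was in 32.1% of the 1440 genes. For TDG this holds for a 7-base match only. Its 8-base site is in the transcript with a 3'UTR of 1784 bases and not in those with 102 and 104 bases. In the other 4 genes the 3'UTRs of some transcripts lack the match. It was held by 2 of 3 such transcripts of ITPA, 3 of 4 of PTTG1IP, 1 of 2 of CCDC80 and 1 of 4 of CTNNBIP1. RPKM is counted over the whole gene and does not separate these transcripts.

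In the levels with mimic NC the genes ranged from 33.4 ± 3.63 RPKM (SD, n = 2) for PTTG1IP to 3.01 ± 0.430 RPKM for HHIPL2. Between them, in falling order, lay CCDC80 (20.2 ± 12.2), KCTD9 (17.6 ± 1.65), TDG (13.8 ± 1.11), ITPA (11.0 ± 0.104), HIPK3 (6.49 ± 0.945), KDELC1 (5.88 ± 1.49) and CTNNBIP1 (3.31 ± 0.00892). Neighbours in this order whose libraries overlapped were CCDC80 and KCTD9, HIPK3 and KDELC1, and CTNNBIP1 and HHIPL2. With miR-217 mimic PTTG1IP also overlapped CCDC80, and TDG overlapped ITPA. Their median with mimic NC, 11.0 RPKM, was above the median of 4.74 RPKM of the other genes with a match. The mimic NC values were part of the choice, and the log2 scale, which adds 1 to each RPKM, gives low genes smaller differences. The comparison is therefore a description. Each value rested on 187 to 21843 reads.

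One pair of the genes acts on damaged bases or nucleotides. TDG, the glycosylase that removes thymine from G·T mismatches and takes part in active DNA demethylation, was at 14.6 and 13.1 RPKM in mimic NC replicates 1 and 2. It was at 12.4 and 8.97 RPKM in miR-217 mimic replicates 1 and 2. Both miR-217 mimic libraries lay below both mimic NC libraries, and the lowest was miR-217 mimic replicate 2. ITPA, which hydrolyses inosine triphosphate and keeps it out of nucleic acids, was at 10.9 and 11.0 RPKM with mimic NC and at 9.67 and 6.35 RPKM with miR-217 mimic. The mimic NC libraries of ITPA were nearly equal, and most of its difference came from miR-217 mimic replicate 2. Within replicate number 1 ITPA was 11.3% lower and within number 2 it was 42.6% lower, the smallest and the largest difference of the 9 genes within a number.

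Another pair takes part in signalling to transcription. HIPK3, a homeodomain-interacting protein kinase of the nucleus, was at 7.16 and 5.82 RPKM with mimic NC and at 5.63 and 3.87 RPKM with miR-217 mimic. The groups did not overlap, but mimic NC replicate 2 and miR-217 mimic replicate 1 lay close together. CTNNBIP1, also called ICAT, binds β-catenin and keeps it from TCF factors, and it was at 3.32 and 3.31 RPKM with mimic NC and 2.41 and 2.08 RPKM with miR-217 mimic. Its groups were well apart relative to their spread. Of the bases counted for CTNNBIP1, 12.7% are shared with an antisense gene listed as RP11-84A14.5, at 0.199 to 0.326 RPKM. The library kit marks strand, but whether counting used it is not given in the sources used here.

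The next pair acts on other proteins. KDELC1, now named POGLUT2, is an endoplasmic reticulum enzyme that adds glucose to EGF repeats such as those of Notch, and it was at 6.93 and 4.82 RPKM with mimic NC and at 5.72 and 3.03 RPKM with miR-217 mimic. Its groups overlapped, because miR-217 mimic replicate 1 lay above mimic NC replicate 2. KCTD9, a BTB domain protein that serves as an adaptor of cullin-3 ubiquitin ligases, was at 16.4 and 18.8 RPKM with mimic NC and at 12.9 and 14.3 RPKM with miR-217 mimic. Here the libraries numbered 2 were the higher ones in both groups, and the groups did not overlap.

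The remaining genes encode membrane or secreted proteins. PTTG1IP, a protein that binds securin and takes it to the nucleus, was at 30.8 and 36.0 RPKM with mimic NC and at 23.9 and 24.2 RPKM with miR-217 mimic. Its groups did not overlap, and its miR-217 mimic libraries were nearly equal. CCDC80, a protein of the extracellular matrix, was at 28.8 and 11.6 RPKM with mimic NC and at 24.0 and 7.09 RPKM with miR-217 mimic. The libraries numbered 1 were far above those numbered 2 in both groups, so that the groups overlapped. HHIPL2, named for its likeness to the Hedgehog-binding protein HHIP, was at 3.32 and 2.71 RPKM with mimic NC and at 2.20 and 1.74 RPKM with miR-217 mimic, and its groups did not overlap.

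**Figure D2:**
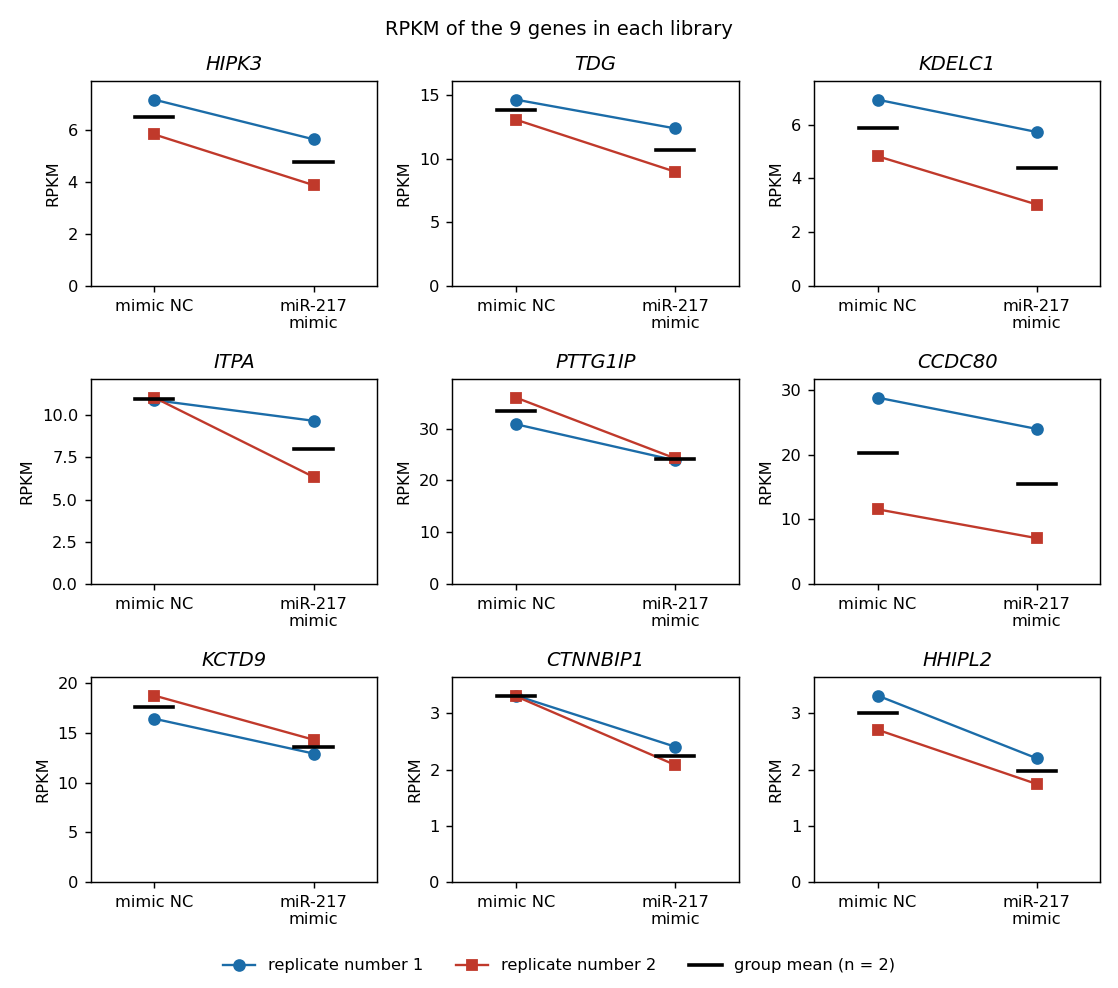
RPKM of each of the 9 genes in the 4 libraries, with a vertical axis from 0 in each panel. Lines join the libraries of the same replicate number, black bars are group means (n = 2), and every line goes down from mimic NC to miR-217 mimic, while in KDELC1 and CCDC80 the lines lie so far apart that the groups overlap.

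The mean RPKM was lower with miR-217 mimic by 22.6% (KCTD9) to 34.6% (HHIPL2). On the log2(RPKM + 1) scale used for testing, the difference ran from -0.35 for KCTD9 (standard error 0.13) to -0.45 for PTTG1IP (standard error 0.13), and the median of the 9 genes was -0.41, compared with -0.017 for all tested genes. Without miR-217 mimic replicate 2 the median of the 9 genes was -0.17, and CCDC80 was at 0.37. Without mimic NC replicate 1 CCDC80 was at 0.18. These fits have no replicate term and leave 1 group with a single replicate number. They therefore mix the mimic difference with the difference between the numbers. The log2(RPKM + 1) scale understates the change of low genes such as HHIPL2. The groups did not overlap in 7 of the 9 genes, where both miR-217 mimic libraries were below both mimic NC libraries in 13.5% of all tested genes and above both in 9.72%. All 9 genes were lower within each replicate number, as their listing requires, compared with 34.1% of all tested genes. In limma without a replicate term PTTG1IP, CTNNBIP1 and HHIPL2 had an unadjusted p under 0.05 and a log2 difference of -0.32 or less, a call made for 93 genes in all (0.67%). That number moved when 1 library was left out, which also unbalances the replicate numbers between the groups. With the replicate number as a block all 9 genes met both criteria, as did 2.24% of all tested genes. No gene of the 9 and none of the 13871 was lower at a Benjamini-Hochberg adjusted p under 0.05 (0 genes in limma, with 98 lower genes, or 0.707%, at an unadjusted p under 0.05). Because the same values chose the genes, nothing is read from these counts. In bulk libraries, fewer cells that express a gene and less of its RNA per cell cannot be told apart.

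Within replicate number 1 the genes were lower by 11.3% to 33.7%, and within number 2 by 23.7% to 42.6%. In all 9 genes the difference was larger within number 2, compared with 51.3% of all tested genes in which the log2 difference was lower within number 2 than within number 1. Among the 22 lowest genes with a match, members or not, 20 had the larger difference within number 2. Because both differences were used in listing the genes, this is not read as a trait of the 9. The ratios are given below with 95% exact intervals as a description, since a fall within each number was a condition of the listing and the intervals do not cover the spread between cultures or libraries. Genes with 2 reads were 2.47 to 3.11 times as frequent as genes with 1 read in each library, and so each read count was divided by 2 in for these intervals, which cover counting error only. The ratio for TDG was 0.846 (interval 0.792 to 0.903) within number 1 and 0.687 (0.628 to 0.751) within number 2. For ITPA it was 0.887 (0.789 to 0.995) and 0.574 (0.487 to 0.673). For CCDC80, the gene with most reads, it was 0.832 (0.809 to 0.856) and 0.614 (0.577 to 0.652). For KCTD9 and HHIPL2 the ratios in both numbers were close together, at 0.787 and 0.763 for KCTD9 and at 0.663 and 0.643 for HHIPL2. The ratio within number 2 rests on miR-217 mimic replicate 2, the smallest library, and the part that this library has in the larger difference was not tested.

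**Figure D3:**
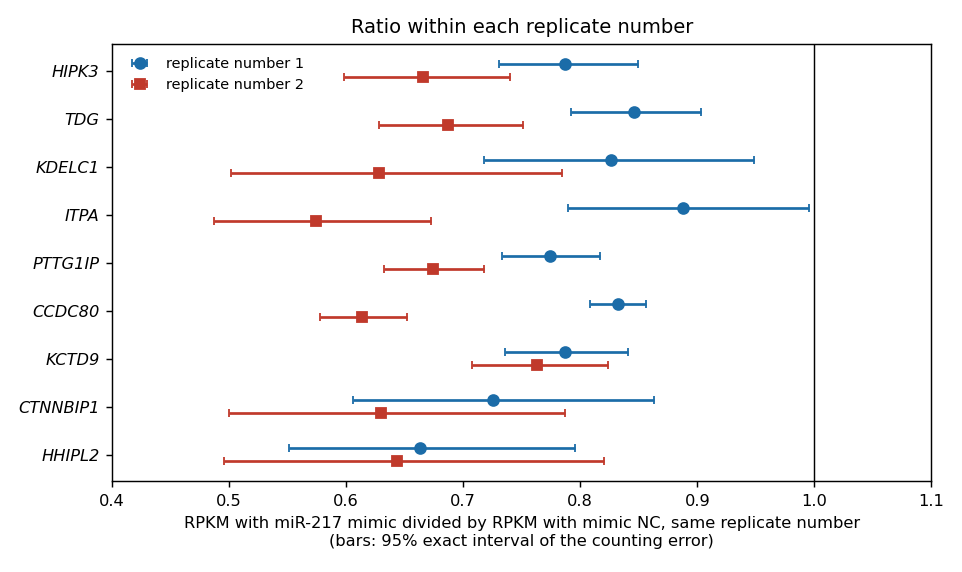
RPKM with miR-217 mimic divided by RPKM with mimic NC of the same replicate number, for each of the 9 genes. Points are ratios of 2 libraries, bars are 95% exact intervals of the counting error, and the vertical line marks no difference; the points lie below 1 because of how the genes were listed, and in all 9 genes the point of number 2 lies to the left of that of number 1.

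The difference between the replicate numbers was not used in choosing the genes, and was tested with the group as a term in limma. It averages the difference in both groups, and so it rests on the same 4 libraries whose values were used in choosing the genes. The question was how far these genes vary between the numbers, which the test cannot set fully apart from the mimic values. CCDC80 was lower in number 2 by -1.44 on the log2(RPKM + 1) scale (standard error 0.11), with an adjusted p = 0.0209 in limma over all 13871 genes. It was 59.9% lower in number 2 with mimic NC and 70.5% lower with miR-217 mimic. KDELC1 was lower by -0.59 (standard error 0.10, adjusted p = 0.0477 from limma), and it was 30.4% lower with mimic NC and 47.1% lower with miR-217 mimic. These 2 genes passed the test, and 8.38% of all tested genes passed it in either direction, 4.69% lower and 3.69% higher in number 2. For both genes, the distance between the numbers was larger than the distance between the groups.

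The other 7 genes did not pass the test of the replicate numbers. HIPK3, TDG, ITPA and HHIPL2 had differences of -0.35, -0.29, -0.26 and -0.22 (adjusted p = 0.0757, 0.123, 0.296 and 0.151 from limma), and CTNNBIP1 had one of -0.07. PTTG1IP (0.12) and KCTD9 (0.16) had values in the other direction. For some genes the 2 groups differed in this. ITPA was 1.34% higher in number 2 with mimic NC and 34.4% lower with miR-217 mimic. CTNNBIP1 was 0.380% lower with mimic NC and 13.5% lower with miR-217 mimic, while HHIPL2 was 18.3% and 20.8% lower. The call for CCDC80 and KDELC1 depends on the fit, and from 0 to 4 of the 9 genes passed over the alternatives. In simulated counts this fit called unchanged genes more often than an adjusted p under 0.05 should allow, so these calls are less certain than their adjusted p. With limma's voom on the recovered reads CCDC80 (adjusted p = 4.04e-05) and KDELC1 (adjusted p = 0.00801) passed as well. Voom called fewer unchanged genes in the same simulation, which gave all genes the same dispersion and changed 200 genes between the numbers. In these libraries voom called 3280 genes, compared with 1163 in the main fit. The simulation therefore cannot show how reliable the voom calls are here. The labels do not say what the number marks.

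**Figure D4:**
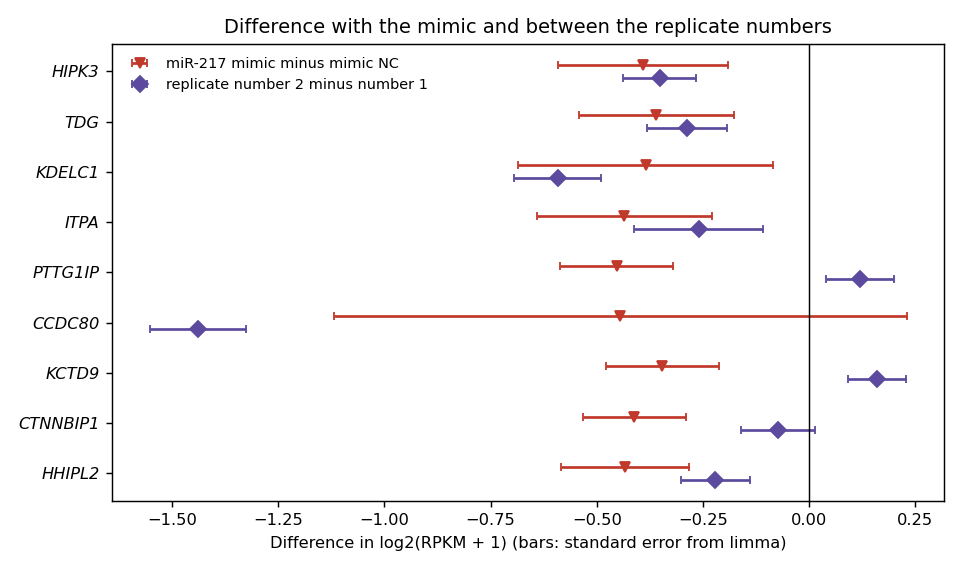
Difference in log2(RPKM + 1) between miR-217 mimic and mimic NC (triangles) and between replicate numbers 2 and 1 (diamonds) for each of the 9 genes, with the standard error from limma as bars. The mimic difference is between -0.45 and -0.35 in every gene, while the difference between the numbers runs from -1.44 in CCDC80 to 0.16 in KCTD9, and the wide bar of CCDC80 for the mimic reflects the distance between its libraries numbered 1 and 2.

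Ordered by their log2 difference, the 9 genes held places 3 to 17 among the 1440 tested genes with a match, and places 157 to 370 among all 13871 tested genes. HMOX1, which encodes heme oxygenase (-0.95), and INSIG2, which holds back sterol synthesis (-0.58), were lower than all 9 of them. Between them lay 6 genes that also hold a match but are not among the 9. These were BNIP3, a mitochondrial protein of hypoxia (-0.43), the collagen gene COL4A5 (-0.40), the transcription factor FOXO4 (-0.39), UBL3 (-0.38), STK40 (-0.38) and COL5A1 (-0.36). Just inside the end of the list was KCTD9 at -0.35, and just after it came SOS1, an exchange factor of RAS, at -0.34 and the kinase gene ICK at -0.33. Of the 13 other genes among the 22 lowest with a match, 5 had an 8-base site (HMOX1, UBL3, SOS1, ICK and SPOPL), compared with 7 of the 9. All of these 5 except HMOX1 are among the study's own candidates. Of the 6 genes that lay between the 9, 1 had an 8-base site (UBL3). Of the 22 lowest genes with a match, 20 had the larger difference within number 2.

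Genes with the 8-base site as a class, 364 in number, had a median log2 difference of -0.057, and 26.1% of them had miR-217 mimic libraries below both mimic NC libraries. Among the 1076 genes with the 7-base match alone these values were -0.028 and 16.3%. The 709 genes with the complement of bases 2 to 7 followed by A, but not the 7-base match, were at -0.034 and 14.5%, and the 2567 genes with the 6-base match alone at -0.019 and 14.2%. Among the 5197 genes without any seed match of 6 bases or more they were -0.0091 and 11.5%. The 8-base and 7-base classes hold the 9 genes, and the values are a description.

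The genes whose profile over the 4 libraries was closest to the mean profile of the 9 genes, by Euclidean distance of centred log2(RPKM + 1) values, were LINC00526 (distance 0.033), IGFBP7-AS1 (0.053), FAXDC2 (0.060), MIR6827 (0.064) and RP11-330M2.4 (0.072). LINC00526 was at 4.94 and 4.23 RPKM with mimic NC and at 3.80 and 2.58 RPKM with miR-217 mimic. Of these, FAXDC2 has an annotated 3'UTR, and it holds 0 matches. Among the 9 genes themselves HIPK3 was closest to the mean profile (0.036) and CCDC80 farthest from it (1.11).

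Relatives and partners of the 9 genes were compared to see whether a family moved as a whole. Of 72 listed relatives and partners, 48 were tested, and their median log2 difference with miR-217 mimic was -0.024, compared with -0.017 for all tested genes. At an unadjusted p under 0.05 in limma, 1 of the 48 was lower and 0 were higher, where 1.19% of all tested genes passed in either direction, and 0 passed after adjustment over all genes. Of the 48, 7 held ATGCAGT in the 3'UTR, and their median was 0.022. Among all tested genes with a 3'UTR 14.5% held it.

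Among the DNA glycosylases that work beside TDG in base excision repair, 9 of 10 were tested, with a median log2 difference of 0.016. The gene at an unadjusted p under 0.05 was MPG, which removes alkylated purines, at 5.46 and 4.71 RPKM with mimic NC and at 4.01 and 2.86 RPKM with miR-217 mimic. Its log2 difference was -0.47 (standard error 0.17, unadjusted p = 0.0456 and adjusted p = 1.00 from limma), and its annotated 3'UTR of 76 bases holds no match. Its log2 difference was -0.65 without miR-217 mimic replicate 1 and -0.28 without miR-217 mimic replicate 2. Without mimic NC replicates 1 and 2 it was -0.38 and -0.55. No p-value is read from these fits, which leave 1 library in a group, and the call of MPG depends on the fit. UNG, the main uracil glycosylase, was at 0.12 (standard error 0.11), MBD4, which like TDG acts on G·T mismatches, at 0.10 (standard error 0.12), and NEIL3 at 0.29 (standard error 0.11). On the other side of 0 lay NTHL1, which removes oxidized pyrimidines, at -0.30 (standard error 0.21), SMUG1 at -0.08 (standard error 0.13) and OGG1 at -0.07 (standard error 0.16). NTHL1 was at 17.8 and 18.7 RPKM with mimic NC and at 17.9 and 11.9 RPKM with miR-217 mimic. Its difference thus came from miR-217 mimic replicate 2. The 7 enzymes that clean the nucleotide pool beside ITPA had a median of 0.073, and NUDT16, which holds the 7-base match, was at 0.13 (standard error 0.15).

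The kinases HIPK1 and HIPK2 hold no match, and their log2 differences were -0.16 (standard error 0.11) and -0.07 (standard error 0.12). KDELC2 and POGLUT1, the other members of the glucosyltransferase family of KDELC1, were at 0.13 (standard error 0.14) and 0.16 (standard error 0.12). Both values lie on the other side of 0 from that of KDELC1, but neither gene passed the test. PTTG1, which encodes securin, was at 0.10 (standard error 0.22), and ESPL1, the separase that securin holds back, at 0.23 (standard error 0.17).

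CUL3 and the 14 BTB adaptors tested beside KCTD9 had a median of -0.040 and ranged from -0.12 for KCTD10 to 0.24 for KCTD6. KCTD20, which has 2 matches including an 8-base site, was at -0.08 (standard error 0.17), and KCTD12, also with 2 matches, was at 0.02 (standard error 0.16). Of the β-catenin partners beside CTNNBIP1, 10 of 17 were tested, with a median of -0.066. CTNNB1 itself was at -0.07 (standard error 0.13), and LRP6, a Wnt receptor with an 8-base site, was at -0.15 (standard error 0.12), the lowest of the 10. LRP6 was at 4.30 and 4.85 RPKM with mimic NC and at 4.11 and 3.96 RPKM with miR-217 mimic. Its groups did not overlap, and neither did those of GSK3B (-0.14) in the same list, which holds no match. Both miR-217 mimic libraries lay below both mimic NC libraries in 5 of the 48 tested relatives and above both in 6. Among all tested genes these shares were 13.5% and 9.72%. The TCF factors LEF1 and TCF7 and the Wnt target AXIN2 were all under 0.3 RPKM. TCF7L2, a TCF factor that was tested and holds a match, was at 0.05 (standard error 0.17). DKK1, also with a match, was at -0.04 (standard error 0.23), the median of the 3 tested partners with a match.

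CCDC80 and HHIPL2 had almost no expressed relatives. SRPX and SRPX2, which share a domain with CCDC80, were at most at 0.0869 and 0.419 RPKM. HHIP and HHIPL1 were at most at 0.0035 and 0.0108 RPKM, and of the Hedgehog pathway genes listed with them GLI2 alone was tested, at -0.05 (standard error 0.20).

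**Figure D5:**
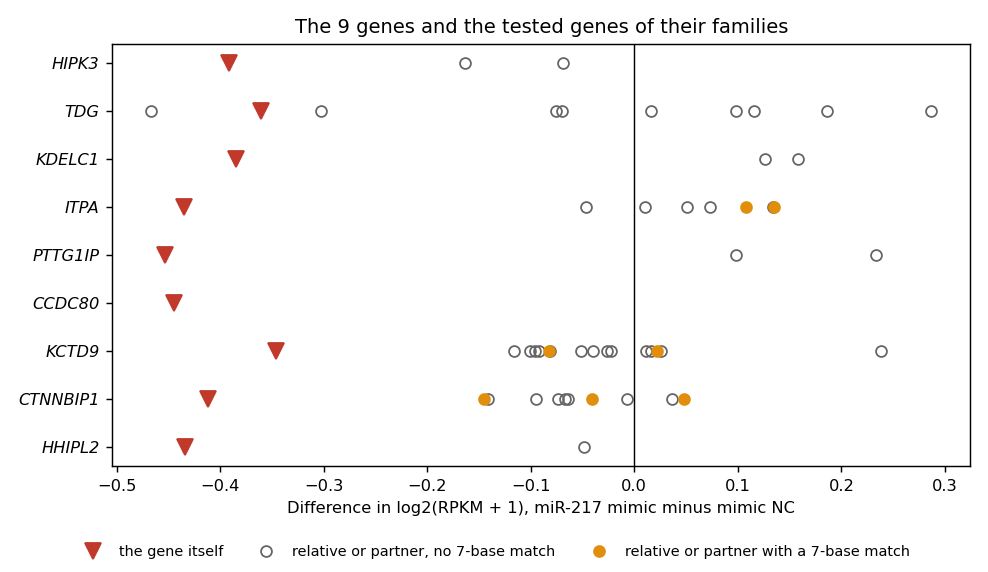
Difference in log2(RPKM + 1) between miR-217 mimic and mimic NC for each of the 9 genes (triangles) and for the 48 tested relatives and partners (circles, filled where the 3'UTR holds the 7-base match). The relatives lie around 0 between -0.47 and 0.29, with MPG in the row of TDG as the lowest, and the row of CCDC80 has no tested relative.

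Copies in the genome can take reads from a gene. At 95% identity over at least 100 bases, processed pseudogenes resemble TDG (TDGP1), KDELC1 (KDELC1P1) and KCTD9 (KCTD9P2, KCTD9P4, KCTD9P5 and others). Those in the table had 0 to 14 reads in a library, compared with 234 or more for the genes themselves. How the counting treated reads that match several places is not given in the sources used here. Exons of the other 8 genes shared no bases with another gene of the table.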

How the data were processed

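RNA-seq of 4 MDA-MB-231 libraries was used, 2 with mimic NC and 2 with miR-217 mimic, grouped by their labels. The authors deposited RPKM for 32955 genes, with exon coordinates. The submitters' processing notes name Trimmomatic 0.36, featureCounts, Subread 1.5.1, edgeR 3.12.1 and hg38, and the aligner and the annotation are not given in the sources used here. RPKM times length in kilobases summed to 1000000 per library, and 100% of values matched whole reads within 0.05 reads, giving totals of 57933183, 47374957, 53356283 and 32635814 reads (mimic NC 1 and 2, miR-217 mimic 1 and 2). Low values are least precise in the last.

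Genes averaging 1 RPKM or more were fitted as log2(RPKM + 1) with limma 3.58.1 (R 4.3.3, eBayes with trend, two-sided), without a replicate term for the mimic and with the group as a term for the replicate numbers. An exact permutation test of 2 against 2 libraries cannot go below 0.333. On simulated counts the fit without a block called few unchanged genes, while the fits with the block and of the replicate numbers, with 1 residual degree of freedom, called more than the threshold should allow. Sites came from the longest 3'UTR of protein-coding transcripts (GENCODE 29, matched by symbol), duplex energies from ViennaRNA 2.7.2, copies from BLAST+ 2.17.0 and the mature miRNA from RefSeq. The position and limits of all 9 genes in the table equalled those in GENCODE 29. Intervals are exact conditional binomial intervals on read counts divided by 2.

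The genes and lists were chosen with earlier results of these data known. Named genes are the 9, relatives at an unadjusted p under 0.05 or else the closest relatives, genes with a match that lie between or next to the 9 in order of difference, and the 5 closest profiles. Other relatives, such as those with a match, were named after their values were seen.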

Additional observations from a re-analysis of the deposited data

How the results depend on the processing

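With all 4 libraries, the log2 differences of the 9 genes were negative in 70 of 70 values and ran from -0.61 to -0.32. With 1 library left out they were negative in 34 of 36 values. The exceptions were both CCDC80, which ran from -1.26 to 0.37 over these fits and was at 0.37 without miR-217 mimic replicate 2 and 0.18 without mimic NC replicate 1. The median of the 9 genes ran from -0.57 to -0.17 over these leave-one-out fits, and without miR-217 mimic replicate 2 it was -0.17. Each of these fits leaves 1 group with a single replicate number and has no replicate term. The difference between the numbers therefore enters their values.

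The number of genes lower by both criteria (unadjusted p under 0.05, log2 difference of -0.32 or less) was 93, and it was 162 without a filter, 28 at a mean RPKM of at least 5, 56 with voom on recovered reads, and 54 to 569 with 1 library left out. With the replicate block it was 311 (2.24%), including all 9 genes, and 348 with voom and the block. The block fit also called too many unchanged genes in simulated counts. Deviations from the group means correlated at 0.68 between same-numbered libraries, but with 2 numbers of unstated meaning the pairing is a hint from the data. At an adjusted p, 1 gene was lower with voom and the block, and 0 under the other alternatives.

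Among the relatives 1 gene (MPG) passed an unadjusted p of 0.05, and 0 did without a filter, at a mean RPKM of at least 5 and with voom, 2 with median centring and with the replicate block, 3 with voom and the block, and 0 to 2 with 1 library left out. For replicate number 2 against 1, 1163 genes passed, 3 without a filter and 3280 with voom. Of the 9 genes 2 passed, 1 with a pseudocount of 0.1, without the variance trend and without the group term, 0 without a filter and 4 with voom. No fit without 1 library was possible there, since none leaves a residual degree of freedom. The cause of these shifts was not tested. Of the 9 genes, 5 held the match in every annotated transcript. CTNNBIP1 and HHIPL2 were at -0.54 to -0.61 with voom or a pseudocount of 0.1. Depth limits HHIPL2 and CTNNBIP1 most, with 187 and 227 reads in the smallest library.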

Other observations

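The mimic is double-stranded, and so the motif for the other strand was also counted (miR-217-3p, AACTGAT, sense strand of the longest 3'UTR). It was found in 12.8% of the 9913 tested genes with a 3'UTR and in 1 of the 9 genes, CCDC80, at 3 places. In the coding sequence, ATGCAGT was found in 13.5% of these genes and in 1 of the 9, HHIPL2. A match is a description of the letters, not of binding.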
